A study of Mus musculus with 6 samples.

Results

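Planar cell polarity (PCP) genes were examined in embryonic submandibular glands (eSMGs) treated with AMD3100. The 10 genes were Ptk7, Vangl1, Vangl2, Celsr1, Celsr2, Prickle1, Scrib, Dvl1, Dvl2 and Ror2, and each was found as 1 line among the 23260 lines of the count tables, each treated as a gene. Ptk7 was chosen from the genes that the study listed as changed in these same libraries, so its difference between the groups is a description, and its passing a threshold in them was fixed by that choice. The other 9 were chosen by their role in the pathway at a time when results of these libraries were known. No p-value is printed for any of the 10, and counts of them past a threshold are given as descriptions only.

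The glands came from E14 embryos of ICR mice and were cultured whole on a filter for 6 h, either in medium alone (control) or in medium holding AMD3100 at 50 µM, which blocks the chemokine receptor CXCR4. Up to 10 eSMGs were pooled in a tube, and 3 tubes per group, numbered 1 to 3 in both groups, gave 6 libraries of reads from the 3′ ends of mRNA. Whole glands hold epithelium, mesenchyme and other cells, and fewer cells of a type cannot be told apart from less RNA per cell. The labels do not state that the tubes were of separate litters, nor that same-numbered tubes of the 2 groups belong together. The paper's statistics section describes its results as those of triplicate independent experiments and names no litters. The errors below therefore measure the spread between tubes, which may be technical.

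PCP is the alignment of cells within the plane of a tissue. At the cell membrane, the atypical cadherins of the CELSR family bridge neighbouring cells, VANGL proteins with PRICKLE gather on one face of the cell, and Frizzled receptors with Dishevelled (DVL) on the opposite face. PTK7, a receptor tyrosine kinase without catalytic activity, and ROR2, a receptor of WNT5A, couple WNT ligands to this system, which directs convergent extension, neural tube closure and the shaping of tubes in branching organs.

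The control libraries held 11532946, 13127539 and 10869528 counted reads, and the AMD3100 libraries 14393031, 11358828 and 9051595. Rn45s, the ribosomal RNA precursor, took between 16.2% and 32.5% of them. Levels are given as counts or as TMM-normalized CPM (counts relative to a library total adjusted by edgeR's trimmed-mean scaling), and 3 counts, the floor used here, equalled between 0.173 and 0.368 TMM CPM. Floors and intervals on shares of reads allow for counting error alone, as PCR copies of one molecule may be counted more than once. Each transcript yields reads from its 3′ end only, and levels were compared mainly between libraries. Where genes are set beside each other, as for the highest marker of a list, it is by read level alone. Log2 fold changes compare AMD3100 with control libraries, positive where AMD3100 was higher, and come from edgeR's quasi-likelihood fit with the group as its only term, each given with its SE. All 10 genes were among the 13610 that passed its filter on low counts.

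The replicate 3 libraries of both groups stood apart from the other 4. On the first principal component of all genes tested, which held 38.2% of the variance, they lay at 84.8 (control) and 80.8 (AMD3100), against -78.7 to -17.4 for the others. On the second (26.3%), AMD3100 replicate 2 (-87.6) and control replicate 1 (82.3) lay at opposite ends, with -16.6 to 25.9 for the rest. Skeletal muscle markers differed most plainly. Myog, the muscle transcription factor myogenin, stood at 521 TMM CPM in control replicate 3 and 485 in AMD3100 replicate 3, against 9.95 to 41.1 elsewhere. It had the highest TMM CPM of the list over the 6 libraries together, a place that rests on replicate 3. In the other 4, Actc1 stood above it (66.7 to 130). Both replicate 3 libraries were above the other 4 for 7 of the 8 muscle genes, whose summed level was 1364 and 1883 against 168 to 320. Many markers of the gland itself were lower there, though not all. The summed level of 10 mesenchymal genes, Col3a1 the most abundant, was 2144 and 1850 in the replicate 3 libraries against 4386 to 4463 in the others, and 5 of the 10 were lower in both. Of 11 epithelial genes, Cdh1 the highest in TMM CPM over the 6 libraries together, 7 were lower in both, with a sum of 670 and 1101 against 1199 to 1364. Cdh1 itself was lowest in control replicate 3 (211 TMM CPM) and highest in AMD3100 replicate 3 (507), with 302 to 394 in the others, Cldn4 was highest in AMD3100 replicate 3 (71.3), and the mesenchymal gene Lum was higher in both. Epithelial and mesenchymal markers, Epcam and Col1a1 among them, were counted in every library, so both layers of the labelled gland were represented in all 6.

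**Figure D1:**
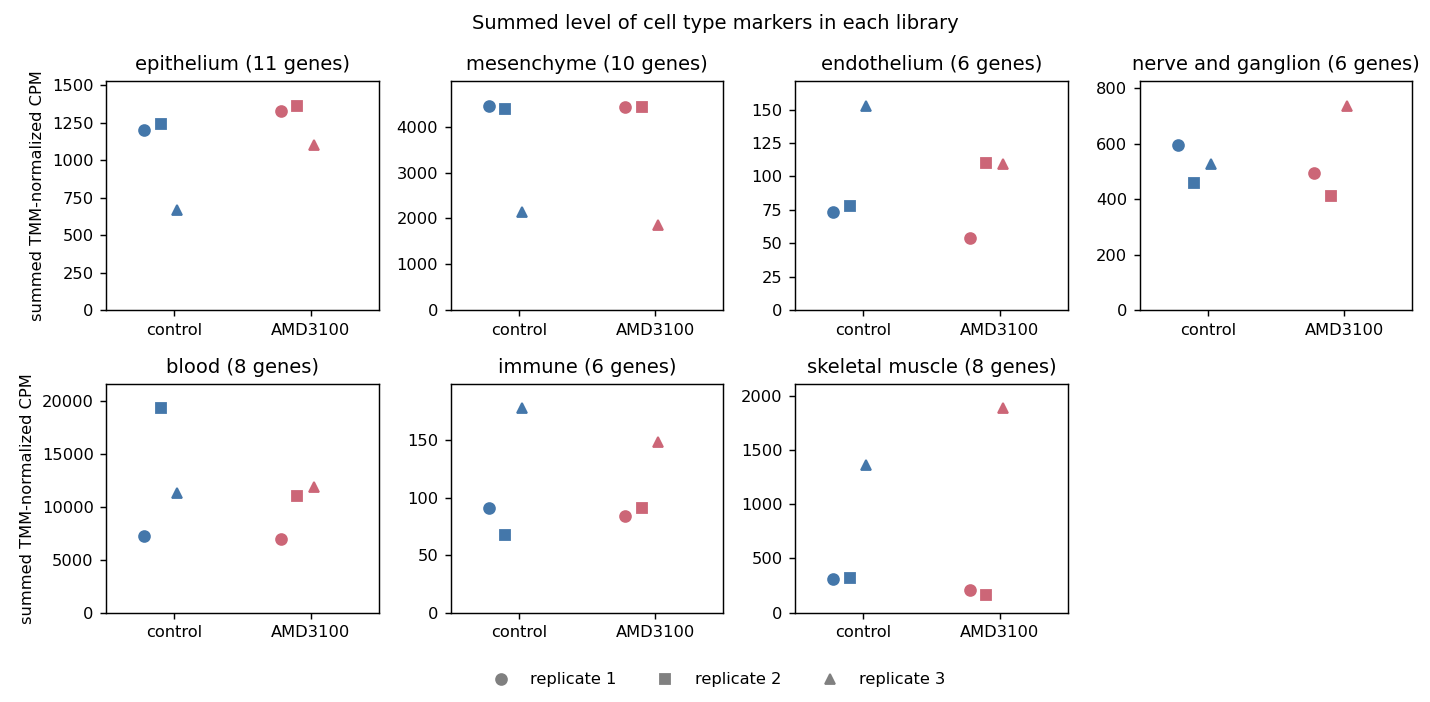
Summed TMM-normalized CPM of 7 lists of cell type markers (y axes, each starting at 0) in the 3 control and 3 AMD3100 libraries (x axes), with a symbol for each replicate number. The triangles of replicate 3 stand highest for skeletal muscle (1364 and 1883) and lowest for mesenchyme (2144 and 1850) in both groups.

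The other marker lists divided the libraries less cleanly. The sum of 6 nerve and ganglion genes ran from 411 to 738, and that of 6 endothelial genes, led by Egfl7, from 53.9 to 153. Of the nerve and ganglion genes, Tubb3 was highest in TMM CPM over the 6 libraries together (111 to 394). That place rests on replicate 3, as Stmn2 stood above it in replicates 1 and 2 of both groups. The 6 immune genes found summed to 178 and 148 in replicate 3 against 67.5 to 91.4. This difference lay in C1qa (123 and 95.05 against 14.0 to 23.0), without which the sums were 54.9 and 53.3 against 53.5 to 75.6, and Ptprc and Adgre1 were lower in both replicate 3 libraries. The 8 blood genes, led by Hba-a1, summed to between 6981 and 19309, with control replicate 2 highest. No gene tested of the 7 lists was past a fold change of 1.5 with an unadjusted p-value under 0.05 between the groups in edgeR's test. No list had a gene at 0 in every library.

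Ptk7 was lower in all 3 AMD3100 libraries than in any control library. Its counts were 366, 510 and 243 in control replicates 1, 2 and 3, and 194, 114 and 114 in the AMD3100 libraries. In TMM CPM these were 32.0, 37.1 and 24.2 (mean 31.1 ± 6.50, SD, n = 3) against 11.2, 10.5 and 14.0 (11.9 ± 1.85, n = 3). The lowest control library was thus above the highest AMD3100 library, and replicate 3 had the lowest level of the controls and the highest of the treated. Within same-numbered tubes, the AMD3100 level was 34.9%, 28.3% and 57.8% of control. The log2 fold change was -1.39 (SE 0.34, 95% interval -2.16 to -0.62), a level 2.62-fold lower, and it was -1.68 (SE 0.37) with replicates 1 and 2 only. Adding the replicate number to the model as a block left it at -1.38 (SE 0.30).

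Among the 13610 genes tested, 375 (2.76%) had a log2 fold change at or below that of Ptk7. Among the 5814 tested with at least the mean TMM CPM of Ptk7, 16 did. As Ptk7 was chosen for this difference, its place is given as a description only. Ptk7 lies at chr17:46564451-46630049 on the minus strand (GRCm38.p6, gene 71461). An older annotation (GENCODE vM1, on another build) places a long noncoding gene of the opposite strand, Gm16736, over 65054 bases of it including its 3′ end. That gene was not analysed here, and the strand setting of the counting is not given in the sources used here, so reads of both cannot be told apart.

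The bases before a start of Ptk7 are shown because it is the gene whose groups separated, and those of Dvl2 as an example of the genes that followed the replicate number, picked after its E-boxes were seen. RefSeq promoter sequences (GRCm38.p6) were found for 7 of the 10 genes, with none for Vangl1, Celsr1 and Scrib. Each run below holds the 250 bases before the start given in the promoter table, 5′ to 3′ on the strand of the gene, at chr17:46629505-46629754 (minus strand) for Ptk7 and at chr11:70000342-70000591 (plus strand) for Dvl2. The Ptk7 window lies inside the span of the gene given above, which begins farther upstream, whereas the Dvl2 window ends just before the span of Dvl2. Capitals mark the GC box GGGCGG or its reverse complement CCGCCC in Ptk7, and the E-box CACGTG, which reads alike on both strands, in Dvl2. The motif marked in each was chosen after the sequences were seen.
Ptk7: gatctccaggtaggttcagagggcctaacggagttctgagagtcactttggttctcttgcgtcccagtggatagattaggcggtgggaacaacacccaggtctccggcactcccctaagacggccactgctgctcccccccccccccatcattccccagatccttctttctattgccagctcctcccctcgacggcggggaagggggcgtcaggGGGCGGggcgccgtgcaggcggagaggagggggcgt
Dvl2: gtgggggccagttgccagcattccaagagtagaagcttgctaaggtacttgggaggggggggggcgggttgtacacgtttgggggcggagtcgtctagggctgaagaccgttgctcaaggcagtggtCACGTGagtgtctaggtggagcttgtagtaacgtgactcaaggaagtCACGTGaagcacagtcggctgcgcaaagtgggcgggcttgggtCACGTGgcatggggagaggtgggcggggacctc

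The Ptk7 window held the GC box at 1 place, no E-box and no TATAAA or TTTATA, with a G or C at 64% of its bases. At least 1 GC box was found in 32.7% of all 32851 RefSeq windows of this length. The Dvl2 window held 3 E-boxes and 4 GC boxes. An E-box was found in 6.02% of all windows, and 3 or more in 20 windows (0.0609%). The windows of Vangl2, Celsr2, Prickle1 (2 windows), Dvl1 and Ror2 held no E-box and no TATAAA, and between 0 (Celsr2) and 5 (Dvl1) GC boxes. These matches describe letters, and no binding was measured.

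**Figure D2:**
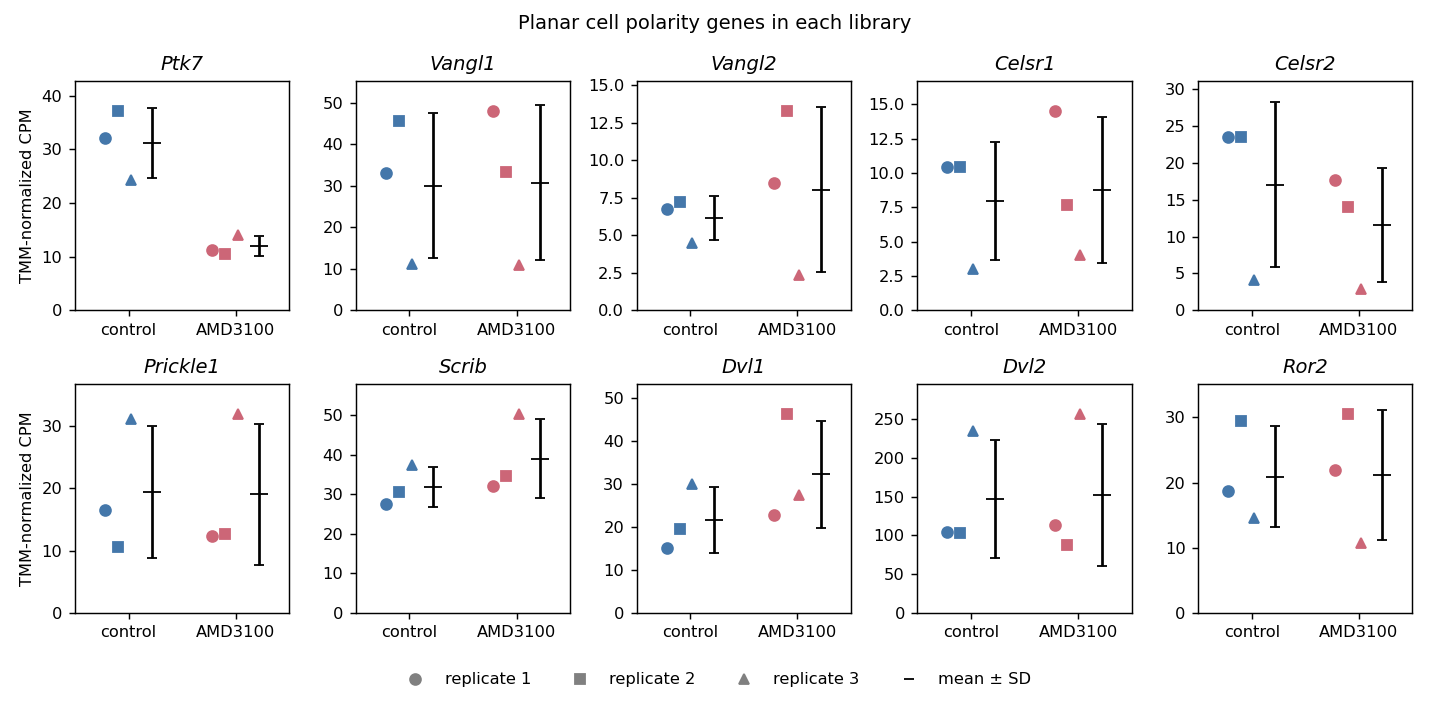
TMM-normalized CPM (y axes, each starting at 0) of the 10 PCP genes in control and AMD3100-treated eSMGs, with a symbol for each replicate number and the mean ± SD (n = 3) in black. Ptk7 is the gene whose groups do not overlap (24.2 to 37.1 against 10.5 to 14.0), and for 8 of the other 9 the triangles of replicate 3 lie on one side in both groups.

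Both VANGL genes overlapped between the groups. Vangl1 stood at 33.2, 45.6 and 11.1 TMM CPM in control replicates 1 to 3 and at 48.0, 33.4 and 10.9 with AMD3100 (log2 fold change 0.04, SE 0.62, 95% interval -1.35 to 1.44). Its level in replicate 3 was 3.64-fold lower than in replicates 1 and 2, in control and treated tubes alike, and with the replicate block its log2 fold change of 0.02 had an SE of 0.26 (95% interval -0.57 to 0.61). Vangl2, the paralogue whose loss leaves the mouse neural tube open, was counted at 77, 99 and 45 reads in control and 147, 144 and 19 in AMD3100 libraries. In TMM CPM these were 6.74, 7.21 and 4.49 against 8.47, 13.3 and 2.33, so that AMD3100 replicates 1 and 2 were above every control and AMD3100 replicate 3 below every control (0.39, SE 0.66). Vangl1 (chr3:102153583-102204744) held between 71.2% and 86.3% of the reads of the pair in each library, with no order by group, and Vangl2 lies at chr1:172000960-172027318.

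Of the CELSR cadherins, Celsr2 had the widest spread of the 10 genes between replicate 3 and the other libraries. Celsr2 (chr3:108390848-108416069) stood at 23.6, 23.5 and 4.09 TMM CPM in control and at 17.7, 14.0 and 2.82 in AMD3100-treated eSMGs. Its level was lower with AMD3100 in each of the 3 same-numbered pairs (75.1%, 59.6% and 69.1% of control), while the replicate 3 libraries were 5.70-fold below the others, so the groups as a whole overlapped. The log2 fold change was -0.56 (SE 0.77, 95% interval -2.30 to 1.18), and -0.57 (SE 0.33, 95% interval -1.30 to 0.17) with the replicate block. Celsr1 (chr15:85898758-86034223) stood at 10.4, 10.4 and 2.99 TMM CPM against 14.5, 7.65 and 4.05, above its same-numbered control in 2 pairs and below it in 1 (0.14, SE 0.66). On the opposite strand, Trmu lies 1363 bases from the 3′ end of Celsr1 and Psrc1 2619 bases from that of Celsr2 (GENCODE vM1), without overlap.

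Of the reads counted on Celsr1, Celsr2 and Celsr3 together, Celsr2 held 65.6% (95% Wilson interval 60.9 to 70.0), 61.4% (57.2 to 65.5) and 30.6% (23.4 to 38.8) in control replicates 1 to 3. With AMD3100 its share was 48.1% (44.3 to 52.0), 41.3% (36.4 to 46.4) and 24.5% (16.9 to 34.0). The share was thus lower than in the same-numbered control in each pair, while the controls differed among themselves by more than any pair did, and the counting intervals do not cover that spread between tubes. Celsr3 took 47.0% and 40.4% in the replicate 3 libraries and 36.1% in AMD3100 replicate 2, against 5.37% to 12.4% in the other 3. These shares compare libraries, not the levels of the genes.

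Prickle1, the cytoplasmic partner of VANGL, went the opposite way to Celsr1 and Celsr2 in the replicate 3 libraries. It stood at 16.5, 10.6 and 31.1 TMM CPM in control and 12.3, 12.7 and 32.1 in AMD3100-treated eSMGs (chr15:93499111-93596266, log2 fold change -0.03, SE 0.53). The replicate 3 libraries were 2.42-fold above the rest, and the groups overlapped throughout. Scrib (chr15:76047162-76069784), the scaffold of the basolateral polarity complex, had 27.5, 30.5 and 37.5 TMM CPM in control against 32.0, 34.7 and 50.5 with AMD3100. It was higher with AMD3100 in all 3 pairs, by 1.16-, 1.14- and 1.35-fold, and its groups still overlapped (0.29, SE 0.31, 95% interval -0.42 to 1.0).

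The Dishevelled genes carry the signal from Frizzled receptors into the cytoplasm. Dvl2 (chr11:70000592-70010109), with 944 to 2354 reads per library, stood at 104, 103 and 235 TMM CPM in control and 113, 87.0 and 257 in AMD3100-treated eSMGs. Same-numbered tubes lay close together and replicate 3 was 2.42-fold above the others. The log2 fold change was 0.05 (SE 0.49), and with the replicate block it was 0.00 (SE 0.14, 95% interval -0.32 to 0.33), the narrowest interval of the 10 genes. The 3′ end of Dvl2 is overlapped for 2119 bases by Acadvl on the opposite strand (GENCODE vM1). Acadvl, a mitochondrial enzyme of fatty acid oxidation, ranged from 33.6 to 52.1 TMM CPM and stood at 45.7 and 45.4 in replicate 3, and reads of the overlap cannot be assigned to either gene. Dlg4, on the same strand 4783 bases from the 3′ end of Dvl2, was higher in both replicate 3 libraries, as Dvl2 was, at 86.6 (control) and 140 (AMD3100) TMM CPM against 30.0 to 49.5 in the others.

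Dvl1 (chr4:155847402-155859303) stood at 15.1, 19.6 and 30.0 TMM CPM in control and 22.8, 46.4 and 27.5 in AMD3100-treated eSMGs. AMD3100 replicate 2, which also lay apart on the second principal component, was the highest of the 6, and the AMD3100 level was 1.51- and 2.37-fold that of control in replicates 1 and 2 and 0.916-fold in replicate 3. The log2 fold change was 0.58 (SE 0.40, 95% interval -0.34 to 1.49), which became 0.98 (SE 0.40) with replicates 1 and 2 only and 0.23 (SE 0.43) without AMD3100 replicate 2. Tas1r3, a taste receptor gene that overlaps the 3′ end of Dvl1 by 36 bases on the opposite strand (GENCODE vM1), was also highest in AMD3100 replicate 2, at 27.4 TMM CPM against 6.65 to 17.1 in the others, and reads of the overlap cannot be assigned to either gene. Dvl1 took 34.8% of the Dishevelled reads in AMD3100 replicate 2, against 9.66% to 16.8% elsewhere. Dvl3, the remaining paralogue, had 0 to 7 reads per library and did not pass the filter on low counts.

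Ror2 (chr13:53109317-53286124) stood at 18.7, 29.5 and 14.6 TMM CPM in control and 22.0, 30.6 and 10.7 in AMD3100-treated eSMGs (log2 fold change 0.01, SE 0.46, 95% interval -1.03 to 1.06). The same-numbered tubes again lay side by side, with replicate 3 lowest in both groups. Ror2 held between 75.6% and 100% of the reads of Ror1 and Ror2. Ror1 had 0 reads in control replicate 3, which allows a share of up to 2.05% (3 of 146 reads), and 7 to 69 in the other libraries.

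**Figure D3:**
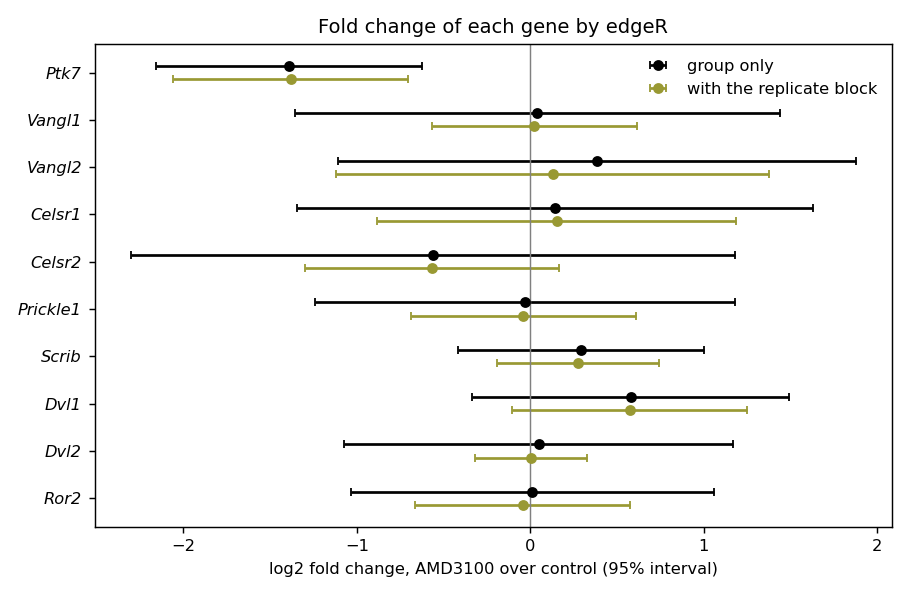
Log2 fold change (x axis) of AMD3100-treated over control eSMGs for the 10 PCP genes (y axis), with 95% intervals from edgeR, for the model with the group only (black) and with the replicate number as a block (olive). The point of Ptk7, the gene chosen for its difference, is at -1.39 (group only), and those of the other 9 run from -0.56 (Celsr2) to 0.58 (Dvl1). The intervals of all 10 genes are narrower with the block.

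Counted over the list, 1 of the 10 genes, Ptk7, which was chosen for being called in these libraries, was lower by more than 1.5-fold with an unadjusted p-value under 0.05, where 1.28% of all genes tested were, and 0 were higher, against 0.397%. With the replicate block the counts were again 1 (Ptk7) and 0, against 2.9% and 1.49% of all genes. With replicates 1 and 2 only, 2 of the 10 were past both thresholds (Ptk7, lower, and Dvl1, higher), where 2.48% of the 13948 genes tested on these libraries were lower and 1.91% higher. The groups did not overlap for 1 gene that was lower (4.17% of all genes) and 0 that were higher (3.28%). In all 3 same-numbered pairs, 2 genes were lower (Ptk7 and Celsr2, 14.6% of all genes) and 1 was higher (Scrib, 15.7%). The count that holds Ptk7 was fixed by its choice and the list was drawn up with results known, so nothing is read from these counts. The median log2 fold change of the 10 genes was 0.05 (3 below 0 and 7 above), and 0.05 without Ptk7, beside 0.02 for all genes tested (6510 below and 7100 above). After Benjamini-Hochberg adjustment edgeR called 0 of the 13610 genes (0%), with 228 past an unadjusted p-value of 0.05, while DESeq2 called 5 and edgeR with the replicate block 3.

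More of these genes were divided by replicate 3 than by the treatment. Both replicate 3 libraries were below the other 4 for 5 of the 10 (Vangl1, Vangl2, Celsr1, Celsr2 and Ror2), against 21.1% of all genes tested, and above them for 3 (Prickle1, Scrib and Dvl2), against 23.1%. Ptk7 and Dvl1 were the genes of the list that did not fall into either set. This comparison was made after the replicate 3 libraries had been seen to stand apart. The 3 genes that were higher there and the 5 that were lower moved beside the muscle, epithelial and mesenchymal markers given above, whose part in these differences was not tested. With the replicate block the median SE of the 10 log2 fold changes went from 0.51 to 0.29, and that of all genes tested from 0.50 to 0.35.

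**Figure D4:**
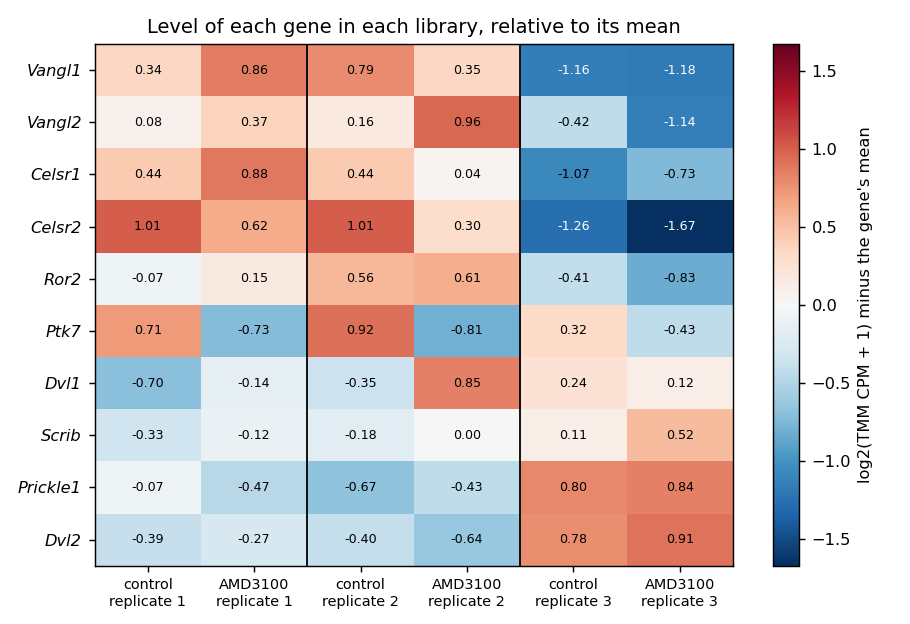
Level of each PCP gene (rows) in each library (columns, in same-numbered pairs), as log2(TMM CPM + 1) minus the mean of the gene over the 6 libraries, with red above and blue below the mean. The replicate 3 columns are blue for Vangl1, Vangl2, Celsr1, Celsr2 and Ror2 and red for Prickle1, Scrib and Dvl2 in both groups, while the row of Ptk7 alternates between control and AMD3100.

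The other 9 genes were not among those most like Ptk7 across the libraries. By Pearson's r of log2(TMM CPM + 1) over the 6 libraries, given as a description, they lay between -0.69 (Dvl1) and 0.29 (Celsr2). Of 10240 genes with a mean level of at least 5 TMM CPM, those most like Ptk7 were Slc2a12, a sugar transporter (r = 0.9997), Klhl8, a Kelch protein (0.99), Rab9, a GTPase of late endosomes (0.99), Phc2, a polycomb protein (0.98), and Psd3 (0.98). Slc2a12 stood at 8.05, 9.54 and 6.18 TMM CPM in control and 2.88, 2.67 and 3.68 in AMD3100-treated eSMGs, the order of the libraries for Ptk7. Phc2 stood at 67.5, 67.3 and 58.7 against 34.0, 32.6 and 34.4. The gene least like it was A230050P20Rik (r = -0.98), with 6.63 to 7.28 in control and 9.33 to 11.2 with AMD3100. With 6 libraries in 2 groups, such likeness includes the difference between the groups, for which Ptk7 was chosen.

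The rest of the pathway was followed in 57 further genes listed by role, of which 56 were in the files and 53 passed the filter (Dvl3, Intu and Wnt9b did not). In edgeR's test, 1 was lower and 1 higher by more than 1.5-fold with an unadjusted p-value under 0.05 (3.77% of the 53, where 1.28% of all genes tested were lower and 0.397% higher), and 0 passed after adjustment over all genes. The median log2 fold change was 0.05, with 24 genes below 0 and 29 above. The groups did not overlap for 3 of the 53 that were lower and 1 that was higher. Of all genes tested, 4.17% were lower and 3.28% higher without overlap.

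Llgl1, a partner of Scribble that keeps apical and basal membrane apart, was the gene that was lower. It had 913, 1647 and 1717 reads in control and 961, 631 and 565 in AMD3100 libraries, or 79.9, 120 and 171 against 55.4, 58.2 and 69.4 TMM CPM, with no overlap of the groups. Its log2 fold change was -1.02 (SE 0.34, edgeR adjusted p = 1.0), and -0.96 (SE 0.18, adjusted p = 0.225) with the replicate block. It no longer passed the unadjusted threshold without AMD3100 replicate 1, AMD3100 replicate 2 or control replicate 3, with log2 fold changes of -0.96 (SE 0.43), -0.98 (SE 0.43) and -0.71 (SE 0.32). Of the other 6 Scribble module genes, all had log2 fold changes above 0 and none passed the test, although Dlg2 (0.53, SE 0.66) passed both thresholds without control replicate 1 (1.48, SE 0.61). The log2 fold change of Dlg2 was smaller without control replicate 2 (0.16, SE 0.66) or control replicate 3 (0.28, SE 0.71). Dlg5, the one of the 6 with the most reads, stood at 74.7, 83.9 and 136 TMM CPM against 104, 101 and 191, higher in all 3 pairs (0.43, SE 0.38). Its group-only value moved to 0.04 (SE 0.36) without AMD3100 replicate 3 and to 0.75 (SE 0.38) without control replicate 3. With the replicate block its log2 fold change was 0.41 (SE 0.14, edgeR adjusted p = 0.703), a fold change under 1.5.

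Ankrd6 (diversin), an ankyrin repeat protein that binds Dishevelled, was the gene that was higher. It stood at 14.7, 11.1 and 18.0 TMM CPM in control and 23.2, 27.8 and 35.5 in AMD3100-treated eSMGs, every treated library above every control. The log2 fold change was 0.98 (SE 0.35, edgeR adjusted p = 1.0), and 0.99 (SE 0.27, adjusted p = 0.484) with the replicate block. It did not pass the unadjusted threshold without control replicate 1 (0.98, SE 0.42), control replicate 2 (0.82, SE 0.41) or AMD3100 replicate 3 (0.79, SE 0.41). The other 5 core PCP genes tested did not pass, among them Fzd3, the Frizzled of neuronal and epithelial PCP with the most reads of the group (33.9, 43.5 and 21.9 against 35.1, 15.1 and 17.6 TMM CPM, log2 fold change -0.55, SE 0.43).

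No WNT ligand passed the group-only test. Wnt5b stood at 33.1, 15.1 and 12.1 TMM CPM in control and 36.3, 37.0 and 22.4 in AMD3100-treated eSMGs, higher in every same-numbered pair while the groups overlapped. Its log2 fold change was 0.67 (SE 0.44) in the group-only fit and 0.77 (SE 0.29, edgeR adjusted p = 0.703) with the replicate block, under which it joined Llgl1 and Ankrd6 past both thresholds. It also passed both in the group-only fit without control replicate 1 (1.22, SE 0.41). The value was smaller, and did not pass, without control replicate 2 (0.50, SE 0.52) or control replicate 3 (0.41, SE 0.44). Wnt4, the ligand with the most reads, stood at 46.6, 57.8 and 28.6 against 68.7, 47.3 and 42.5 (0.25, SE 0.35). Wnt5a, the ligand of ROR2, had 21 to 167 reads per library (-0.33, SE 0.65).

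Of 11 further receptors and co-receptors, 8 had log2 fold changes below 0 and 3 above, and none passed the group-only test. The groups did not overlap for Fzd1 and Fzd5, both lower with AMD3100 (as were 4.17% of all genes tested) and both sparsely counted, Fzd1 with 20 to 89 reads against 4 to 19 (-2.08, SE 1.07, and -1.27, SE 1.49, without control replicate 2) and Fzd5 with 40 to 45 against 12 to 23 (-1.21, SE 0.92). Ryk, a WNT receptor with an inactive kinase domain like that of PTK7, stood at 167, 185 and 304 TMM CPM in control and 121, 131 and 209 with AMD3100. It was lower in all 3 pairs, with a log2 fold change of -0.51 (SE 0.36) and of -0.50 (SE 0.13, edgeR adjusted p = 0.416) with the replicate block, a fold change under 1.5. The group-only value of Ryk was -0.19 (SE 0.34) without control replicate 3 and -0.81 (SE 0.37) without AMD3100 replicate 3. Fzd2, named after its values were seen, was also lower in all 3 pairs, at 242, 253 and 93.5 against 144, 177 and 77.1 TMM CPM. Its log2 fold change was -0.56 (SE 0.45), and -0.52 (SE 0.14, edgeR adjusted p = 0.487) with the replicate block, a fold change under 1.5. It passed both thresholds with replicates 1 and 2 only (-0.63, SE 0.16) and without control replicate 3 (-0.90, SE 0.36). Its log2 fold change was smaller, and did not pass, without AMD3100 replicate 3 (-0.30, SE 0.43) or control replicate 2 (-0.34, SE 0.52).

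None of the remaining groups held a gene that passed. Of the Fat and Dachsous cadherins, which orient tissues alongside the core system, Dchs1 had the most reads (108, 96.9 and 48.9 against 103, 100 and 76.1 TMM CPM, log2 fold change 0.14, SE 0.35). Among the effectors that tie PCP to cilia, Fuz stood at 19.0, 26.1 and 34.7 against 22.1, 15.2 and 26.5 (-0.32, SE 0.37). The 10 downstream effectors had log2 fold changes from -0.27 to 0.62, and Cdc42, a small GTPase of the actin cytoskeleton, stood at 521, 544 and 232 against 468, 453 and 207 (-0.20, SE 0.43). Gipc1, an adaptor that binds VANGL in vesicle traffic, stood at 47.5, 44.1 and 22.7 against 46.7, 57.1 and 26.5 (0.19, SE 0.40).

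Mmp14 and Adam17, proteases that cleave PTK7 at the cell surface, did not pass the test. Mmp14, the membrane-bound matrix metalloproteinase, stood at 253, 208 and 292 TMM CPM in control and 241, 240 and 299 in AMD3100-treated eSMGs (log2 fold change 0.05, SE 0.28). Adam17 had a log2 fold change of -0.02 (SE 0.52).

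**Figure D5:**
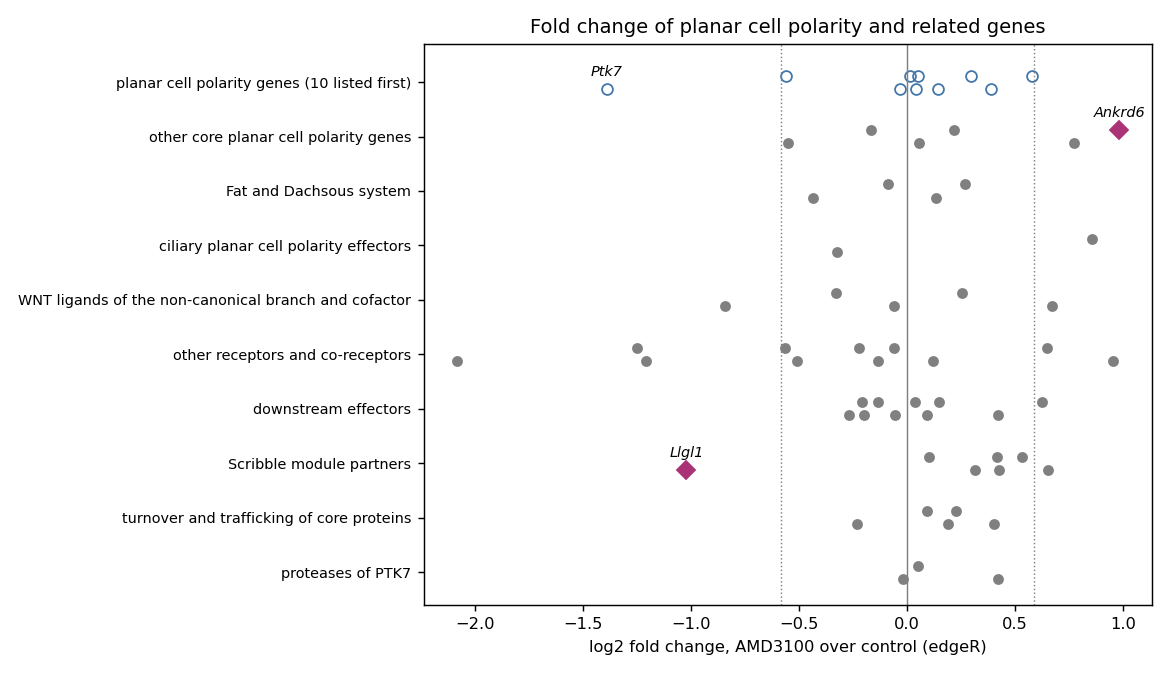
Log2 fold change (x axis) of AMD3100-treated over control eSMGs for the 10 PCP genes (open circles, no test) and for the 53 further genes tested, by role (rows). Dotted lines mark a fold change of 1.5 in either direction, diamonds the 2 further genes also past an unadjusted p-value of 0.05 in edgeR (Llgl1 at -1.02 and Ankrd6 at 0.98).

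Of the further genes, a share near that of all genes divided by replicate 3. Both replicate 3 libraries were below the other 4 for 12 of the 53 and above them for 11, together 43.4%, where the shares of all genes tested were 21.1% below and 23.1% above.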

How the data were processed

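Raw read counts per gene symbol were deposited by the authors for each of 6 libraries, without normalization. The paper's methods describe a QuantSeq 3′ mRNA kit and single reads. The submitters' processing notes name Bowtie2, edgeR and mm10, while the annotation and the counting tool are not given in the sources used here. Of 23282 lines, 22 that repeated a symbol with the same counts were left out, and no line lacked a gene name.

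Groups and replicate numbers were taken from the sample labels. Groups were compared with edgeR 4.0.16 in R 4.3.3 (TMM, filterByExpr, glmQLFit, glmQLFTest, Benjamini-Hochberg adjustment) with the group as the only term, a script first tested on simulated data. The simulated libraries had less spread than the real ones and no replicate effect, so that test does not show how the fit behaves here. The thresholds, a fold change over 1.5 and an unadjusted p-value under 0.05, are those in the text of the study, which states a larger fold change in a figure legend and used another test. The biological coefficient of variation was 0.579. The SE of a log2 fold change was its size divided by the square root of its F statistic. Deviations from the group means correlated between same-numbered libraries at 0.18, 0.17 and 0.58. Between unlike numbers, AMD3100 replicate 1 with control replicate 2 gave 0.20. AMD3100 replicate 2 with control replicate 1 gave 0.15. Deviations within a group cancel out, so an outlying replicate 3 raises the values among replicates 1 and 2 whatever their number. By these values replicate 3 alone went with its own number. Same-numbered pairs and the replicate block therefore rest on the numbers of the labels, which state no pairing.

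The 10 genes, the lists of further pathway genes and of cell type markers, and the tests were chosen with earlier results of these data known. By the naming rule, the genes named were the 10, the further genes past both thresholds, the gene with the most counts in each role, the 5 most and the 1 least like Ptk7, neighbours within 5 kb of a 3′ end (of these, the microRNA gene Mir324 inside Dvl2 was not analysed here), and the marker of each list with the highest TMM CPM over the 6 libraries together. Other further genes and markers, such as Celsr3, Ror1, Wnt5a, Wnt5b, Fzd1, Fzd2, Fzd5, Adam17 and Ptprc, were named after their values were seen. Positions and promoters were those of RefSeq (GRCm38.p6), to which 22024 of 23260 lines matched by symbol, and overlaps of 3′ ends those of GENCODE vM1 on NCBIM37. Alternatives were the Wald test of DESeq2 1.42.0, scaling by the upper quartile, limma-voom (limma 3.58.1) on quantile-normalized values, other filters, robust estimation, the replicate block, replicates 1 and 2 only, Rn45s left out and each library left out.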

Additional observations from a re-analysis of the deposited data

How the results depend on the processing

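The log2 fold change of Ptk7 lay between -1.68 and -1.24 over the 16 alternatives, which reuse the libraries it was chosen on and so are no independent support. Celsr2 stayed below 0 (-1.02 to -0.11), Scrib (0.05 to 0.44) and Dvl1 (0.23 to 0.98) above 0, and the other 6 genes changed sign in at least 1 alternative. The median over the 10 genes lay between 0.00 and 0.30. Of the 10 genes, 2 were past both thresholds (Ptk7 and Dvl1) with replicates 1 and 2 only and with the replicate block on these, an alternative added after the data were seen, and 1 in all others. Over all genes, 228 were past both thresholds, against 479 in DESeq2, 598 with the replicate block, 613 with replicates 1 and 2 only and 661 with the block on these. Leaving out 1 library gave 163 to 547, with 547 without control replicate 3 and 451 without AMD3100 replicate 3. Genes with an adjusted p-value under 0.05 numbered 5 in DESeq2, 3 with the replicate block and 10 with the block on replicates 1 and 2, and 0 in the other alternatives, each library left out included. The further pathway genes past both thresholds numbered 2, 3 under DESeq2 (Fzd1 added), the replicate block (Wnt5b added) or replicates 1 and 2 only (Fzd2 added), and 1 to 3 with a library left out. The block changed no other call among the 10 genes and the further pathway genes. Groups that did not overlap on plain CPM numbered 442 lower and 456 higher. The causes were not tested. With 19 to 147 reads per library, Vangl2 was among the most sparsely counted of the 10, and a difference smaller than its interval was not detectable at this depth and spread.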
